A study of Mus musculus with 12 samples.

Results

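The 8 genes described here code for inducible GTPases of the mouse: the 6 immunity-related GTPases Igtp, Iigp1, Irgm1, Irgm2, Tgtp1 and Tgtp2, and the 2 very large inducible GTPases Gvin1 and Gm4070. They were taken by symbol from a table of 34348 genes, in which all 8 symbols were found. They were chosen by their RPKM in these libraries with LCWE against PBS, above all in liver, so differences between LCWE and PBS are given for them as descriptions, with no test. The libraries were made from total RNA of C57BL/6 mice and fall into 4 groups of 3: liver of mice given LCWE, liver of mice given phosphate-buffered saline (PBS), small intestine of mice given LCWE, and small intestine of mice given PBS. LCWE is the common short name of an extract of Lactobacillus casei cell walls that induces a vasculitis in mice. The authors' differential table heads its treated columns LCWECFA, a name the sources used here do not explain, so LCWE below stands for these groups whether or not a second agent was given. Replicate numbers are those of the labels, 1, 2 and 4 for LCWE and 2, 3 and 4 for PBS. Nothing in the labels says that libraries of a group came from separate animals, so the error terms below may be partly technical.

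Immunity-related GTPases are cytosolic and membrane proteins that mouse cells make in large amounts after exposure to interferon gamma, and in part after type I interferon. The effectors, Iigp1 (also called Irga6) and the closely related Tgtp1 and Tgtp2 (Irgb6), load onto the vacuoles of parasites such as Toxoplasma gondii and take part in breaking them open. The regulators, Irgm1, Irgm2 and Igtp (Irgm3), sit on the cell's own membranes and hold the effectors in their inactive, GDP-bound form. Very large inducible GTPases are giant relatives that interferons also induce in mouse cells, and much less is known of what they do. Transcription of such genes after interferon runs through DNA elements called gamma-activated sites (GAS) and through interferon-stimulated response elements (ISRE), which interferon regulatory factors and their complexes bind.

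RefSeq promoter windows, 250 bases before to 50 bases after the start of transcription in build GRCm38.p6, were matched for 5 of the 8 genes, Igtp, Irgm1, Irgm2, Tgtp1 and Tgtp2. The windows were searched on both strands for the ISRE core GAAANNGAAA and the GAS core TTCNNNGAA. The stretch of 60 bases around the matches is shown for each of these 5 genes, because it is sequence that their choice did not use. Each is written 5′ to 3′ on the strand of the gene, with the matched cores in capitals.
Igtp, chr11:58199492-58199551, plus strand: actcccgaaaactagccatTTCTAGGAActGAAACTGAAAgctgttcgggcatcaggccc
Irgm2, chr11:58214883-58214942, plus strand: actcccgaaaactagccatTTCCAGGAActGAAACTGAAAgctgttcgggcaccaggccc
Tgtp1, chr11:48992294-48992353, minus strand: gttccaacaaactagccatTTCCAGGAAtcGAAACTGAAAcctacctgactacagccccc
Tgtp2, chr11:49064253-49064312, minus strand: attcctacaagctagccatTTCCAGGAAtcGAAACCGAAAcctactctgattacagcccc
Irgm1, chr11:48871415-48871474, minus strand: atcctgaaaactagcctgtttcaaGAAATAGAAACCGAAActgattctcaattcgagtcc

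The ISRE core was present in 5 of these 5 promoters, against 3.44% of the 32851 promoter windows in the table. It began 34 bases before the start in Igtp, 64 in Irgm2, 77 in Tgtp1 and 70 in Tgtp2. Irgm1 held 2 overlapping copies that began 30 and 24 bases before the start, and they form the longer run of capitals in its line. The GAS core was present in Igtp, Irgm2, Tgtp1 and Tgtp2 and not in the window of Irgm1, against 8.3% of all windows. Both cores together were in these 4 promoters and in 0.454% of all windows. In the same 4 promoters the GAS core came first and the ISRE core followed after 2 bases, the arrangement TTCNNNGAANNGAAANNGAAA. That arrangement, written down after these windows had been seen, was found in 5 of the 32851 windows. The fifth belonged to Gm12185, another immunity-related GTPase gene, which overlaps Tgtp1 on the same strand. Whether its window overlaps that of Tgtp1 was not examined. The windows also resemble one another outside the motifs: aligned base by base, Igtp and Irgm2 were identical at 81.3% of 300 positions, Tgtp1 and Tgtp2 at 73.0%, and the other pairs at 47.3% to 56.0%. A match of letters does not show that a protein binds there.

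The genes lie in clusters, and some share transcript sequence, which bears on every value below. In the mm10 positions of the deposited table, Igtp (chromosome 11, 58199556 to 58207591) and Irgm2 (chromosome 11, 58199618 to 58222782) overlap on the plus strand and share 162 exonic bases. Irgm1 (48861968 to 48871683), Tgtp1 (48985327 to 48994172) and Tgtp2 (49057194 to 49064206) follow one another on the minus strand of chromosome 11. Gm4070 (105895139 to 105953967) and Gvin1 (106156556 to 106215326) lie on the minus strand of chromosome 7, and Iigp1 lies on the plus strand of chromosome 18 (60376029 to 60392627). Of all runs of 50 bases in the GENCODE M21 transcripts of Gvin1, 98.3% also occur in Gm4070, and 79.4% of those of Tgtp1 occur in Tgtp2. For Igtp the share found in any other gene was 11.8%, for Irgm2 7.83%, for Iigp1 1.69% and for Irgm1 0.379%. Values of Gvin1 against Gm4070, and of Tgtp1 against Tgtp2, are therefore uncertain, since the sources used here do not say how reads that match both copies were assigned. Tgtp1 also shares 223 exonic bases with Gm12185 on the same strand, and Gm4070 shares 320 with the antisense gene Gm20663, whose reads cannot be told apart without a stated strand.

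Between 30294594 and 44921885 reads per library were assigned to genes, and the 8 genes had from 116 reads (Tgtp1 in 1 intestinal PBS library) to 15900 reads (Gvin1 in 1 liver LCWE library). Values are RPKM (reads corrected for the length of the gene and for the depth of the library). Levels of different genes can be compared only as far as shared reads were assigned alike, which is not stated. Levels of Tgtp1, Tgtp2, Gvin1 and Gm4070 against other genes, and shares of summed RPKM, are therefore uncertain. Alb, the albumin gene of hepatocytes, lay between 10519 and 23556 RPKM in liver and between 51.6 and 145 RPKM in intestine, and Fabp2, the intestinal fatty acid binding protein, between 38.6 and 113 RPKM in liver and between 676 and 9408 RPKM in intestine. The lowest value of any of the 8 genes in any library was 1.19 RPKM, so all 8 passed the filter of 0.5 RPKM in at least 3 libraries in each comparison.

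**Figure D1:**
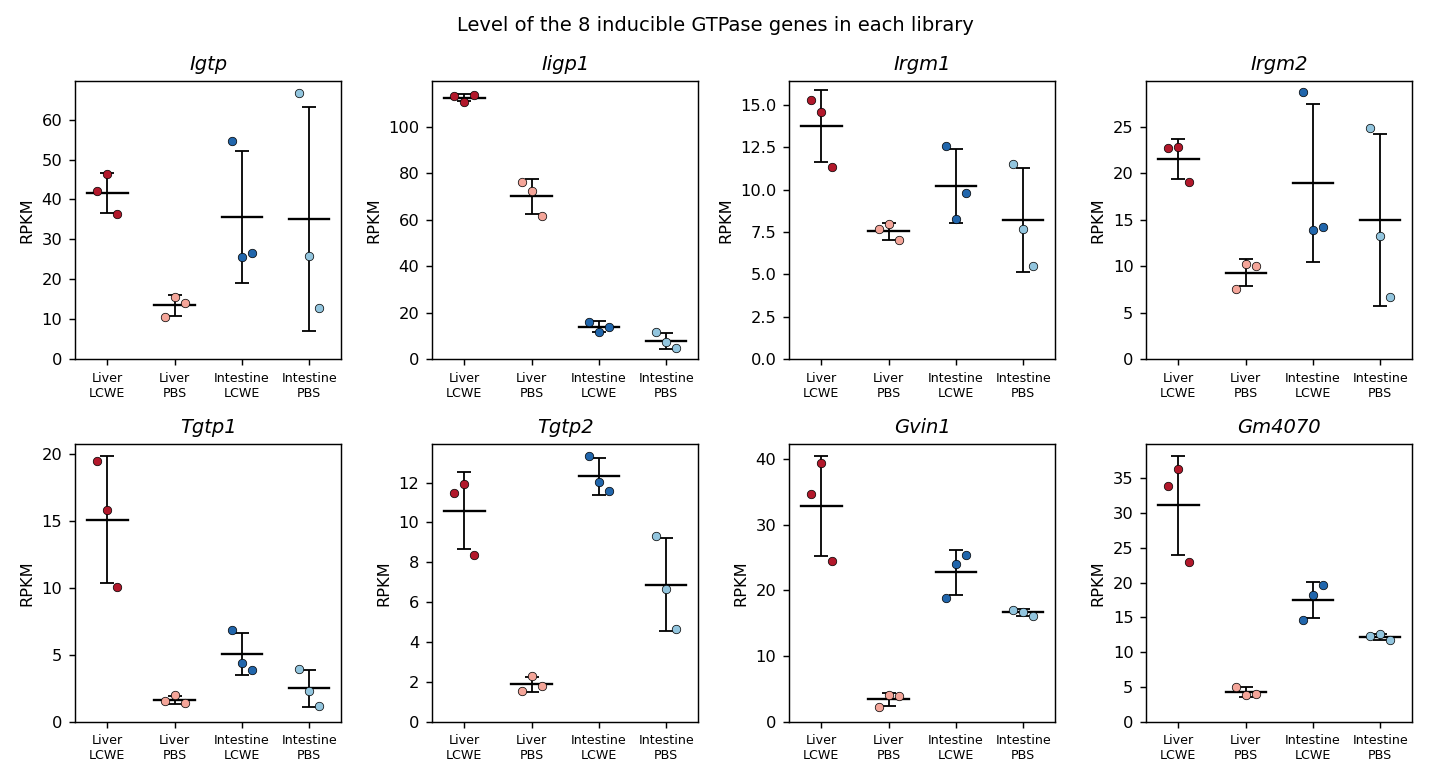
RPKM of each of the 8 genes (vertical axis, from 0, a scale per gene) in the 3 libraries of each group (horizontal axis). Points are libraries, horizontal lines are means and bars are SD. For each gene the 3 liver LCWE libraries lie above the 3 liver PBS libraries, while for Igtp, Irgm1, Irgm2 and Tgtp1 the intestinal LCWE and PBS libraries overlap.

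In liver, each of the 8 genes was higher in the 3 LCWE libraries than in the 3 PBS libraries, by 1.61-fold (Iigp1) to 8.53-fold (Gvin1). All 8 passed the threshold of an adjusted p below 0.05 in limma, which 3.39% of the 14404 genes tested passed in the same direction. In all 8 the groups did not overlap, against 18.7% of genes with LCWE above PBS. Both counts follow from how the genes were chosen and say nothing further. The 8 calls became 5 without LCWE replicate 1, 4 without LCWE replicate 2 and 4 in 1 fit over the 4 groups, with each gene still higher in LCWE livers. Over all genes, calls in the same direction were then 72 of 13981, 47 of 13997 and 813 of 14404. Of the 582 genes called in liver, 84.0% were higher with LCWE, and 73.5% with quantile scaling. The median log2 difference over the 8 genes was 1.91, and that over all genes tested was 0.06. In pieces of tissue, fewer cells of a type and less RNA per cell cannot be told apart.

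Among the regulators, Igtp had 42.1, 46.5 and 36.4 RPKM in LCWE livers (replicates 1, 2 and 4), against 10.6, 15.7 and 14.0 RPKM in PBS livers (replicates 2, 3 and 4). Each LCWE liver lay far above each PBS liver. Irgm2 had 22.7, 22.8 and 19.1 RPKM in LCWE livers, against 7.59, 10.2 and 10.0 RPKM in PBS livers. Irgm1 had 15.3, 14.6 and 11.3 RPKM in LCWE livers, against 7.66, 7.99 and 7.01 RPKM in PBS livers. The gap between the groups was thus widest for Igtp and narrowest for Irgm1. On the log2(RPKM + 0.5) scale the difference was 1.61 for Igtp (standard error, SE, 0.17), 1.18 for Irgm2 (SE 0.15) and 0.81 for Irgm1 (SE 0.14).

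Among the effectors, Iigp1 had by far the highest level and the smallest relative difference. Iigp1 had 113, 111 and 114 RPKM in LCWE livers, against 76.1, 72.3 and 61.6 RPKM in PBS livers, a log2 difference of 0.69 (SE 0.11). Tgtp1 had 19.4, 15.8 and 10.0 RPKM in LCWE livers, against 1.57, 1.99 and 1.40 RPKM in PBS livers. Tgtp2 had 11.5, 11.96 and 8.38 RPKM in LCWE livers, against 1.56, 2.30 and 1.78 RPKM in PBS livers. The Tgtp copies had the lowest mean RPKM of the 8 genes in PBS livers, and the log2 difference was 2.82 for Tgtp1 (SE 0.24) and 2.22 for Tgtp2 (SE 0.18). In absolute terms the order is different: mean Iigp1 was 112.6 RPKM in LCWE livers and 70.0 RPKM in PBS livers, a larger step in RPKM than any of the other 7 genes made.

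Of the very large GTPases, Gvin1 showed the widest relative difference of the 8 genes. Gvin1 had 34.7, 39.3 and 24.5 RPKM in LCWE livers, against 2.27, 4.13 and 3.90 RPKM in PBS livers. Gm4070 had 33.97, 36.4 and 23.0 RPKM in LCWE livers, against 5.02, 3.78 and 3.97 RPKM in PBS livers. The highest LCWE value was in replicate 2 and the lowest in replicate 4 for both genes. The log2 difference was 3.09 for Gvin1 (95% interval 2.49 to 3.69) and 2.71 for Gm4070 (2.24 to 3.19). The intervals of Gvin1, Gm4070, Tgtp1 and Tgtp2, from 1.79 upwards, did not reach those of Irgm2 (0.83 to 1.53), Irgm1 (0.49 to 1.14) or Iigp1 (0.43 to 0.94).

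The make-up of the immunity-related GTPase messages in liver differed accordingly. Iigp1 gave 50.5%, 49.8% and 57.2% of the summed RPKM of the 6 immunity-related GTPases in LCWE livers, against 72.4%, 65.5% and 64.3% in PBS livers. Tgtp1 and Tgtp2 together gave 9.26% to 13.8% in LCWE livers and 2.97% to 3.88% in PBS livers. The 3 regulators gave 33.6% to 37.7% in LCWE livers and 24.6% to 32.4% in PBS livers. The summed level of the 6 genes was 199 to 224 RPKM in LCWE livers and 95.8 to 110 RPKM in PBS livers.

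**Figure D2:**
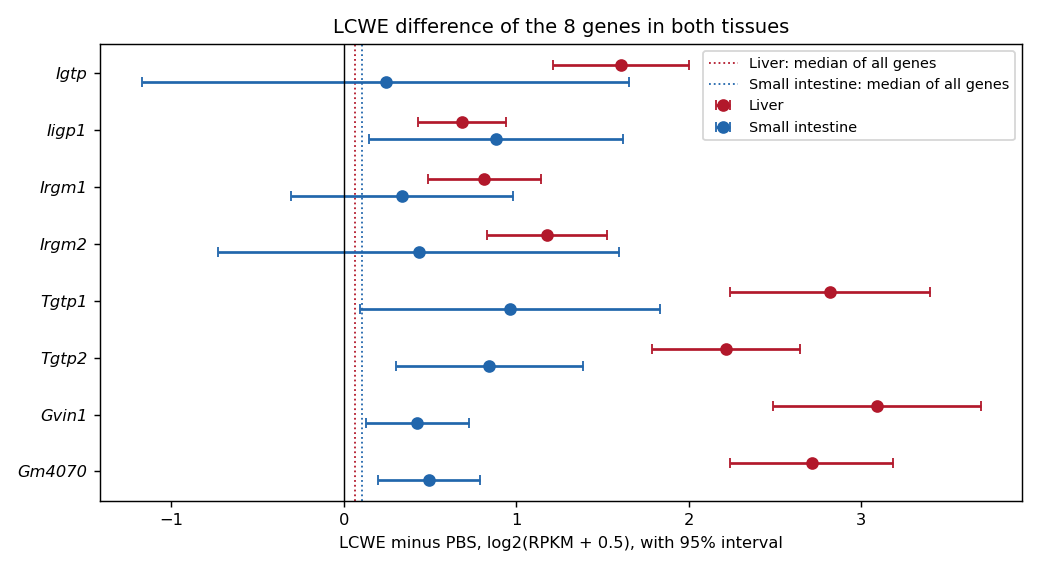
LCWE minus PBS on the log2(RPKM + 0.5) scale (horizontal axis) for each of the 8 genes (vertical axis), in liver (red) and small intestine (blue). Points are limma estimates with 95% intervals over 3 libraries against 3, and dotted lines mark the median of all genes tested, 0.06 in liver and 0.11 in intestine. In liver the estimates run from 0.69 (Iigp1) to 3.09 (Gvin1), and in intestine from 0.24 (Igtp) to 0.96 (Tgtp1).

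In the small intestine the same genes were higher on average in LCWE than in PBS libraries by at most 1.95-fold, and none of the 8 passed the threshold. No gene in the intestine did: 0% of 17510 genes passed in limma, with 2202 genes at an unadjusted p below 0.05, and limma voom on the recovered reads called 0. The groups did not overlap for 4 of the 8 genes, Iigp1, Tgtp2, Gvin1 and Gm4070, against 13.2% of all genes with LCWE above PBS. The median log2 difference was 0.46 over the 8 genes and 0.11 over all genes tested.

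The very large GTPases had the tightest values in PBS intestines. Gvin1 had 18.8, 24.0 and 25.4 RPKM in LCWE intestines, against 17.1, 16.8 and 16.1 RPKM in PBS intestines, a log2 difference of 0.43 (95% interval 0.13 to 0.73). Gm4070 had 14.7, 18.2 and 19.7 RPKM in LCWE intestines, against 12.3, 12.6 and 11.7 RPKM in PBS intestines, a log2 difference of 0.49 (0.20 to 0.79). For both genes each LCWE intestine lay above each PBS intestine, with LCWE replicate 1 nearest to the controls.

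Of the effectors, Iigp1 had 16.1, 11.7 and 14.0 RPKM in LCWE intestines, against 11.6, 7.21 and 4.54 RPKM in PBS intestines. Tgtp2 had 13.4, 12.01 and 11.6 RPKM in LCWE intestines, against 9.31, 6.66 and 4.64 RPKM in PBS intestines. For Iigp1 the nearest libraries of the groups, LCWE replicate 2 and PBS replicate 2, were almost level. Tgtp1 had 6.82, 4.42 and 3.86 RPKM in LCWE intestines, against 3.93, 2.33 and 1.19 RPKM in PBS intestines, and these overlap. The log2 differences were 0.88 for Iigp1 (SE 0.31), 0.84 for Tgtp2 (SE 0.23) and 0.96 for Tgtp1 (SE 0.37).

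The regulators varied widely between intestinal libraries, and their groups overlapped. Igtp had 54.8, 25.6 and 26.6 RPKM in LCWE intestines, against 66.7, 25.9 and 12.8 RPKM in PBS intestines, so that PBS libraries were both the highest and the lowest of the 6. Irgm2 had 28.8, 13.9 and 14.2 RPKM in LCWE intestines, against 24.9, 13.2 and 6.68 RPKM in PBS intestines. Irgm1 had 12.6, 8.28 and 9.82 RPKM in LCWE intestines, against 11.5, 7.66 and 5.47 RPKM in PBS intestines. In each of these genes LCWE replicate 1 and PBS replicate 2 were above the other libraries of their group. The log2 difference was 0.24 for Igtp (95% interval -1.17 to 1.66), 0.43 for Irgm2 (-0.73 to 1.60) and 0.34 for Irgm1 (-0.31 to 0.98). Without PBS replicate 4 the sign turned for Igtp (-0.31) and Irgm2 (-0.03), and without LCWE replicate 1 for Igtp (-0.11).

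**Figure D3:**
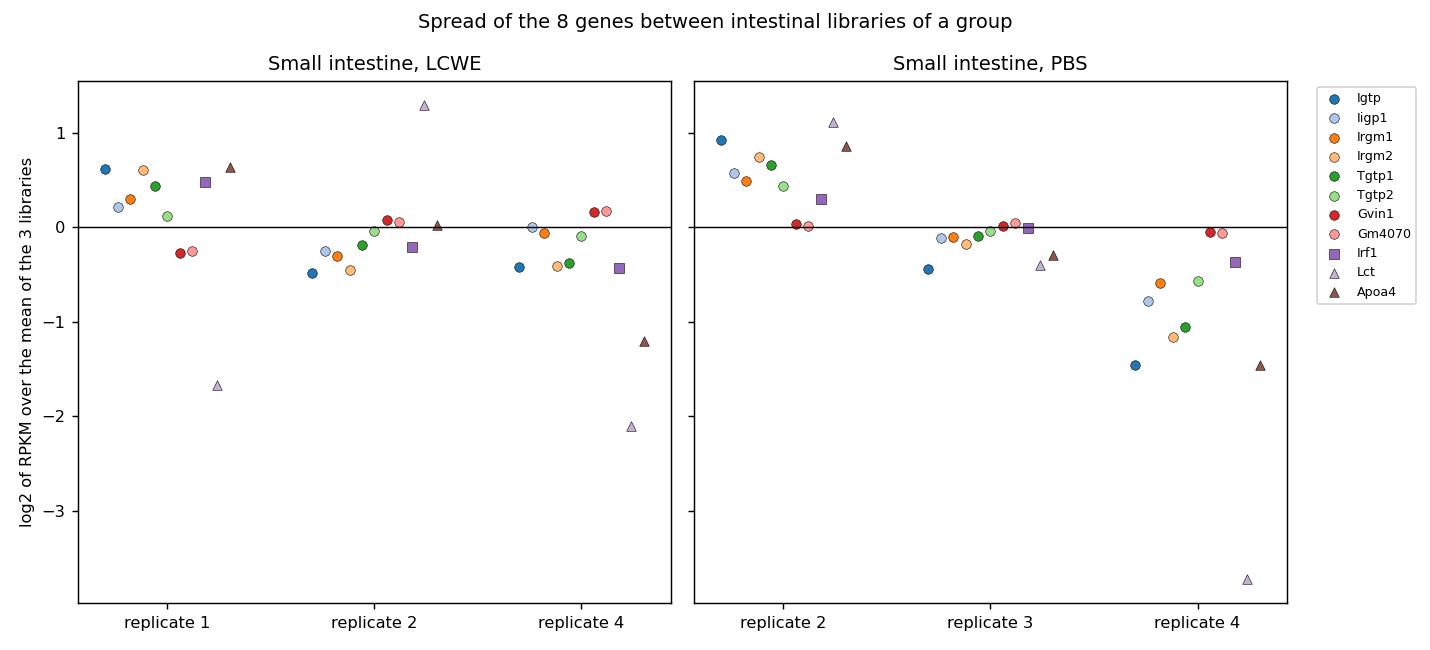
log2 of RPKM over the mean of the 3 libraries of the group (vertical axis) for the 8 genes (circles), Irf1 (squares) and the enterocyte genes most variable in PBS intestines, Lct and Apoa4 (triangles) in each intestinal library (horizontal axis; left LCWE, right PBS). In PBS intestines the 6 immunity-related GTPases and Gvin1 are highest in replicate 2 and lowest in replicate 4. Gvin1 and Gm4070 stay within 1.08-fold across the 3 libraries.

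The spread between PBS intestines was wide for the immunity-related GTPases and narrow for the very large ones. The highest PBS intestine was 5.21 times the lowest for Igtp, a spread that 0.805% of the 14657 intestinal genes with a mean of at least 1 RPKM reached. It was 3.73 times for Irgm2, 3.29 for Tgtp1, 2.56 for Iigp1, 2.10 for Irgm1 and 2.01 for Tgtp2, reached by 1.38%, 2.48%, 3.11%, 4.89% and 5.60% of genes. For Gvin1 it was 1.06 times and for Gm4070 1.08 times, a spread that 89.2% and 83.1% of genes reached. All 6 immunity-related GTPases were highest in replicate 2 and lowest in replicate 4, and so was Gvin1 within its narrow spread. This order was found in 19.8% of the 17510 genes tested in intestine. The libraries differed in other genes in the same order. Irf1, a transcription factor gene that interferon gamma induces, had 78.7, 63.6 and 49.6 RPKM in PBS replicates 2, 3 and 4. Of 6 genes of mature enterocytes, 5 had this order to different degrees. They ran from Vil1 (villin), with 866, 769 and 734 RPKM, to Apoa4 (a lipoprotein component), with 6795, 3054 and 1365 RPKM, and Lct (lactase), with 86.5, 30.1 and 3.02 RPKM. Sis (sucrase-isomaltase) did not have it, with 194, 172 and 199.9 RPKM. Their part in the spread was not tested.

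In LCWE intestines the highest library was replicate 1 for the 6 immunity-related GTPases and replicate 4 for Gvin1 and Gm4070. Replicate 1 was highest in 22.9% of the 17510 genes tested in intestine. Irf1 had 91.8, 56.7 and 48.9 RPKM in LCWE replicates 1, 2 and 4. The summed level of 6 enterocyte genes was 1268 to 4899 RPKM in LCWE intestines and 8103 to 17424 RPKM in PBS intestines, without overlap. The sum rests mainly on Fabp2 and Apoa4. Taken singly, Fabp2, Alpi, Lct and Apoa4 did not overlap, while Vil1 and Sis did, with 231, 129 and 95.4 RPKM for Sis in LCWE replicates 1, 2 and 4. None of these 6 genes passed the threshold in the intestinal comparison, with 4 at an unadjusted p below 0.05, and their part in the values of the GTPases was not tested.

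The difference between the tissues in their response was described in 1 fit over the 4 groups, as the LCWE difference in liver minus that in intestine. It was past the threshold for 2 of the 8 genes, Gvin1 at 2.67 on the log2 scale (SE 0.30) and Gm4070 at 2.22 (SE 0.25), beside 0.532% of the 18619 genes tested in this direction. Without PBS intestine replicate 4 it was past the threshold for 4 of the 8, beside 210 of 18421 genes in either direction, and the value of Iigp1 was 0.12. For Tgtp1 it was 1.86 (SE 0.48), for Tgtp2 1.37 (SE 0.31), for Igtp 1.37 (SE 0.68), for Irgm2 0.75 (SE 0.56) and for Irgm1 0.48 (SE 0.33). Iigp1 stood alone with a value near 0, at -0.19 (95% interval -0.97 to 0.58), as its relative difference was 1.61-fold in liver and 1.84-fold in intestine. The intervals of Igtp, Irgm2 and Irgm1 also reached 0. Gvin1 and Gm4070 share most of their sequence and are not independent of each other.

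Levels in the control mice, PBS liver against PBS intestine, were compared in the 6 PBS libraries. The PBS livers are also the controls of the LCWE comparison by which the genes were chosen, a choice that favours low values in them, so these differences too are descriptions with no p. The tissues favoured different members: Iigp1 was 9.03-fold higher in PBS liver, while Gvin1, Tgtp2 and Gm4070 were 4.47-fold, 3.02-fold and 2.69-fold lower there. The log2 difference was 3.17 for Iigp1 (SE 0.30), -2.16 for Gvin1 (SE 0.20), -1.59 for Tgtp2 (SE 0.25) and -1.43 for Gm4070 (SE 0.13). In each of these 4 genes the 3 libraries of one tissue lay apart from the 3 of the other, as 18% of all genes did with liver higher and 63.3% with liver lower.

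These 4 were past the threshold, and such calls are common between tissues: 77.6% of the 17253 genes tested passed, 16.9% higher and 60.7% lower in liver. The median of all genes was itself at -0.71. Relative to that median, Iigp1 stood at 3.88, Gm4070 at -0.72, Tgtp2 at -0.89 and Gvin1 at -1.45. Of the genes called, 21.8% were higher in liver, and the share was 50.3% with quantile scaling and 47.5% with median-ratio scaling. The direction of these 4 genes held under both scalings, with Gvin1 between -2.33 and -1.42 and Iigp1 between 2.86 and 3.94 over 15 and 16 alternatives.

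The intervals of Igtp, Irgm2, Tgtp1 and Irgm1 between the control tissues reached 0. The log2 difference was -1.06 for Igtp (95% interval -2.35 to 0.23), -0.49 for Irgm2 (-1.50 to 0.53), -0.38 for Tgtp1 (-1.18 to 0.43) and -0.06 for Irgm1 (-0.64 to 0.53). These intervals are wide enough to hold a difference of more than 1 log2 unit in Igtp, Irgm2 and Tgtp1. The sign turned with the scaling for Irgm2, Tgtp1 and Irgm1. Without PBS intestine replicate 4, the library lowest in these genes, Igtp (-1.61), Irgm2 (-0.95) and Tgtp1 (-0.73) were past the threshold as well, which made 7 of 8. In that fit 9478 of the 14271 genes tested were called, 6829 of them lower in liver.

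**Figure D4:**
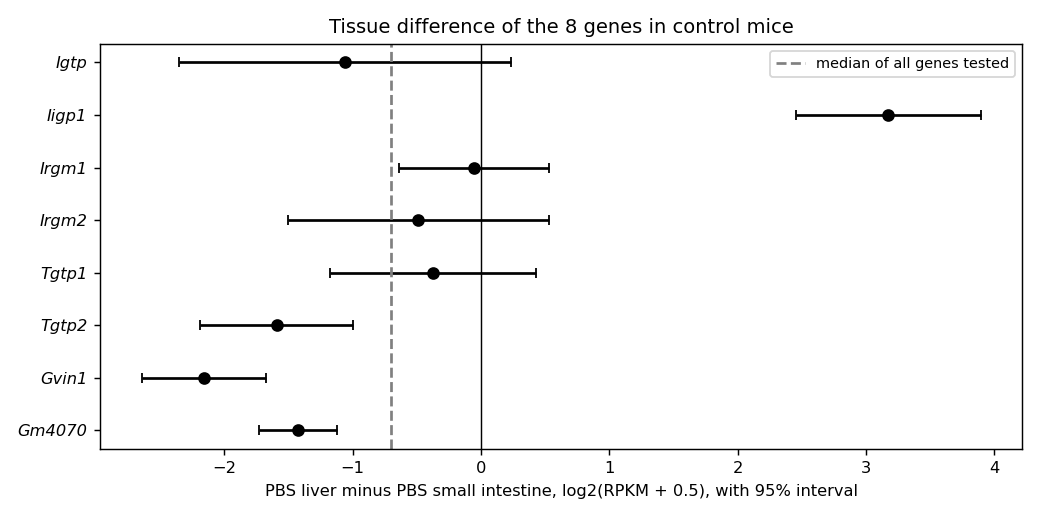
PBS liver minus PBS small intestine on the log2(RPKM + 0.5) scale (horizontal axis) for each of the 8 genes (vertical axis), limma estimates with 95% intervals over 3 libraries against 3. The dashed line marks the median of all genes tested, -0.71. Iigp1 lies at 3.17, and the intervals of Gvin1, Tgtp2 and Gm4070 lie below the dashed line.

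The order of the 4 groups differed between the genes. For Iigp1 the group means ran from liver LCWE (112.6 RPKM) through liver PBS (70.0 RPKM) and intestine LCWE (13.9 RPKM) to intestine PBS (7.79 RPKM), and no neighbours in that order overlapped. For the other 7 genes the lowest group was liver PBS. The highest was liver LCWE for Igtp, Irgm1, Irgm2, Tgtp1, Gvin1 and Gm4070, and intestine LCWE for Tgtp2. For Igtp, Irgm1 and Irgm2 each pair of neighbours in the order overlapped. For Tgtp1 the step between liver LCWE and intestine LCWE was free of overlap, for Tgtp2 the step between intestine PBS and liver PBS, for Gvin1 both steps below intestine LCWE, and for Gm4070 all 3 steps.

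Within the immunity-related GTPases, liver held mainly Iigp1 and intestine mainly regulators. The 3 regulators gave 62.9% to 72.6% of the summed RPKM of the 6 genes in LCWE intestines and 70.6% to 80.6% in PBS intestines, and Iigp1 gave 12.2% to 17.5% and 9.08% to 12.8%. Igtp was 2.74 to 3.22 times Irgm1 in LCWE livers and 1.39 to 1.99 times in PBS livers. In intestine this ratio was 2.71 to 4.36 with LCWE and 2.34 to 5.80 with PBS.

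**Figure D5:**
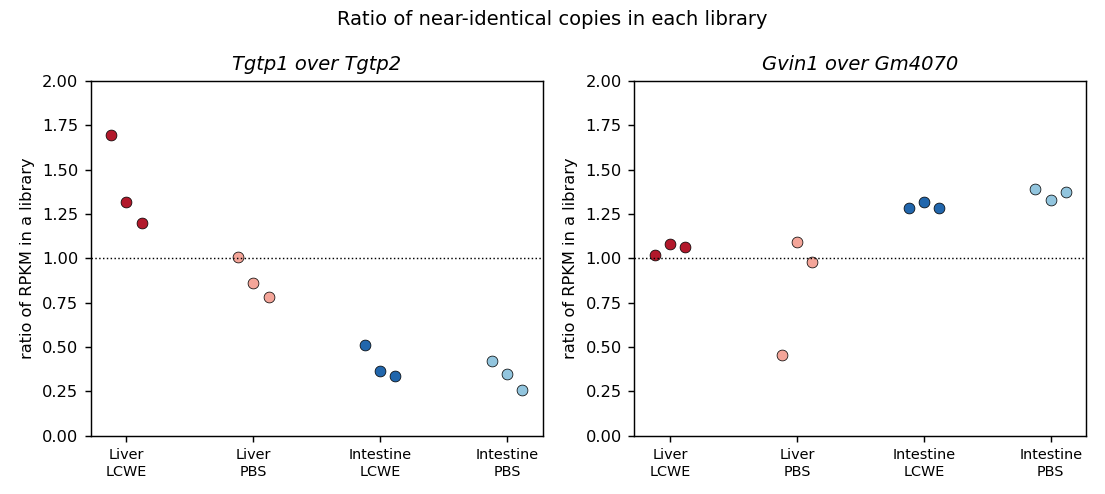
Ratio of RPKM between near-identical copies (vertical axis, from 0) in each library of the 4 groups (horizontal axis), Tgtp1 over Tgtp2 on the left and Gvin1 over Gm4070 on the right, with a dotted line at 1. Tgtp1 over Tgtp2 lies above 1 in the 3 LCWE livers and between 0.257 and 0.511 in the 6 intestinal libraries.

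The ratio of the Tgtp copies differed between tissues and, in liver, between treatments. Tgtp1 over Tgtp2 was 1.69, 1.32 and 1.20 in LCWE livers and 1.01, 0.864 and 0.783 in PBS livers, which do not overlap. It was 0.511, 0.368 and 0.334 in LCWE intestines and 0.422, 0.349 and 0.257 in PBS intestines, which do. Each intestinal library thus lay below each liver library. Gvin1 over Gm4070 was 1.02 to 1.08 in LCWE livers and 0.453, 1.09 and 0.981 in PBS livers, the low value being that of replicate 2. In intestine it was 1.28 to 1.32 with LCWE and 1.33 to 1.39 with PBS. With the reads of both Tgtp copies added up, the log2 LCWE difference was 2.69 in liver (SE 0.22) and 0.92 in intestine (SE 0.28). The part of shared reads in these ratios was not tested.

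The rest of the immunity-related GTPase family was followed in a list of 12 genes, of which 10 were tested in liver. In liver 3 rose with LCWE (Gm12185, Gm12250 and Gm5431), none fell, and the median log2 difference was 0.93. The share of genes that rose among all 14404 tested in liver was 3.39%, and it stands beside each list count in liver. Gm5431 was near the threshold (limma adjusted p 0.0489), and the count was 6 without PBS replicate 2 and 2 without any other 1 of the libraries. Gm12185 had 6.54, 5.37 and 3.66 RPKM in LCWE livers, against 0.521, 0.669 and 0.519 RPKM in PBS livers (log2 difference 2.38, SE 0.20, limma adjusted p 0.00557). Gm12250 (Irgb10), an effector, had 5.58, 5.35 and 4.74 RPKM in LCWE livers, against 1.90, 1.45 and 1.60 RPKM in PBS livers (1.42, SE 0.13, 0.00557). Gm4951, a relative of Iigp1, showed the same tissue preference as Iigp1, at 61.8 to 70.8 RPKM in PBS livers and 1.33 to 1.36 RPKM in PBS intestines (log2 difference 5.16, limma adjusted p 4.56e-08), but had 63.1 to 80.2 RPKM in LCWE livers (LCWE difference 0.11, limma adjusted p 0.661). In intestine 10 of the list were tested and none passed, with 3 at an unadjusted p below 0.05.

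Other copies of the very large GTPases differed in level from Gvin1 and Gm4070. Of 8 listed, 5 were found in the table by symbol and 3 were tested in liver, where Gm8995 rose (log2 difference 1.44, SE 0.26, limma adjusted p 0.0353), a call lost without any 1 library other than PBS replicate 2. Gm8979 had at most 1.07 RPKM in any liver library, against 154, 217 and 165 RPKM in LCWE intestines and 232, 203 and 179 RPKM in PBS intestines. All 5 copies were lower in PBS liver than in PBS intestine. The 7 copies added up therefore gave a log2 LCWE difference of 2.73 in liver (SE 0.19) and -0.07 in intestine (SE 0.15), the second resting mainly on Gm8979.

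Guanylate-binding proteins (Gbp genes) are larger interferon-induced GTPases that act with the immunity-related ones at vacuoles. Of 11 tested in liver, 10 rose with LCWE and none fell, with a median log2 difference of 1.36, and the eleventh, Gbp11, stood at 0.53 (SE 0.54). The share that rose over all genes tested in liver was 3.39%. Gbp2 had 11.9, 11.8 and 10.5 RPKM in LCWE livers, against 2.61, 2.93 and 3.60 RPKM in PBS livers (1.75, SE 0.13, limma adjusted p 0.00557). In intestine 10 were tested, none passed (5 were at an unadjusted p below 0.05), and the median was 0.56. The 10 calls in liver became 5 without LCWE replicate 1 or without LCWE replicate 2, and 6 without PBS replicate 3. The Gbp windows matched in the promoter table held the ISRE core in 5 of 6, and the linked arrangement in 0 of 6.

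Of the interferon gamma pathway, 11 genes were listed and 9 tested in liver, where 3 rose and none fell, beside 3.39% of all genes tested that rose. Nlrc5, a transactivator of antigen presentation genes, had 4.91, 4.63 and 4.38 RPKM in LCWE livers, against 1.78, 2.34 and 2.66 RPKM in PBS livers (log2 difference 0.91, limma adjusted p 0.0257). Ciita, the transactivator of class II genes, and the transcription factor Irf8 also rose, with log2 differences of 1.56 and 1.08. Irf1 had 10.5, 12.3 and 16.8 RPKM in LCWE livers, against 9.67, 5.54 and 6.00 RPKM in PBS livers, and did not pass (limma adjusted p 0.115). The receptor genes Ifngr1 and Ifngr2, the kinase genes Jak1 and Jak2 and the phosphatase gene Ptpn2 did not pass either, with log2 differences from 0.06 to 0.50. Ifng itself was at most 0.239 RPKM in any of the 12 libraries and was not tested, and Socs1, an inhibitor of the pathway, was not tested in liver. In intestine 10 were tested and none passed in limma, with 4 at an unadjusted p below 0.05. The count of 3 was 0 without LCWE replicate 1, 2 or 4, without PBS replicate 3 and with a replicate block.

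Of 9 genes for type I and type III interferon receptors and their signalling, 8 were tested in liver and 2 rose, Irf9 (log2 difference 0.47, limma adjusted p 0.0429) and Il10rb (0.64, 0.0456). The share that rose over all genes tested in liver was 3.39%. Of 13 autophagy genes, among them the Gabarap and Atg genes whose products help to place immunity-related GTPases on vacuoles in mouse cells, 0 passed in limma in liver and 0 in intestine, with 3 and 1 at an unadjusted p below 0.05, and voom called 1 in liver and 0 in intestine. In intestine no gene of the receptor list passed, with 1 of 9 at an unadjusted p below 0.05. The 2 calls of the receptor list were 0 under quantile and median-ratio scaling and without LCWE replicate 1, LCWE replicate 2 or either of PBS replicates 3 and 4.

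Many markers of immune cells were, like the GTPases, higher in LCWE livers than in PBS livers. Within LCWE livers their order differed. Summed macrophage and monocyte markers were highest in replicate 4, where each of the 8 genes except Iigp1 was lowest. That sum rests mainly on Marco and Lyz2, and single markers differed in their order. Marco, Lyz2, Adgre1, Cd68, Timd4 and Cd14 were highest in replicate 4, and Clec4f and Csf1r in replicate 2. Vsig4, Itgam, Ccr2 and Ly6c2 were lowest in replicate 4. The neutrophil sum and the B and plasma cell sum were also lowest in replicate 4, and the T and NK cell sum in replicate 2. For the marker counts that follow, the share that rose over all genes tested in liver was 3.39%. Of 12 macrophage and monocyte markers, 10 were tested and 7 rose, and their summed level was 351 to 627 RPKM in LCWE livers and 142 to 194 RPKM in PBS livers. Marco, a scavenger receptor of macrophages and the marker with the widest difference, had 108, 165 and 319 RPKM in LCWE livers, against 11.9, 21.7 and 43.4 RPKM in PBS livers. Of 10 neutrophil markers, 3 were tested and 2 rose, with sums of 16.1 to 40.1 RPKM in LCWE livers and 1.42 to 4.35 RPKM in PBS livers, and Ly6g, Mpo, Elane and Cxcr2 were under 0.5 RPKM in every liver library. Of 11 T and NK cell markers, 4 were tested and 2 rose (5.83 to 6.86 RPKM in LCWE livers, 2.65 to 3.02 RPKM in PBS livers), and of 6 B and plasma cell markers 2 were tested and both rose (43.8 to 64.3 RPKM in LCWE livers, 13.6 to 28.2 RPKM in PBS livers). Of 6 endothelial markers 1 rose, and of 6 hepatocyte markers none passed, with 3 at an unadjusted p below 0.05. Of these 3, Ttr and Serpina1c were lower with LCWE (log2 differences -0.60 and -0.28) and Cps1 was higher (0.39). The hepatocyte sum was 22191 to 25208 RPKM in LCWE livers and 25827 to 43825 RPKM in PBS livers. That sum rests mainly on Alb and Apoa1, and each of them, taken singly, overlapped between the groups. Leaving out 1 library gave 0 to 8 macrophage markers, 0 to 2 neutrophil, 0 to 1 T and NK cell, 0 to 2 B and plasma cell and 0 to 1 endothelial markers that rose, and each of these counts was 0 without LCWE replicate 1, LCWE replicate 2 or PBS replicate 3. The part of these cells in the levels of the GTPases was not tested.

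The genes with the most similar profile were found as those with the smallest root mean square difference in log2 deviation from the PBS mean of the same tissue, over 12 libraries and among 13111 genes. Outside the 8 genes, Gm12250 was nearest to Igtp (0.26), Gbp6 to Irgm2 (0.19), Mlkl, which carries out necroptosis, to Irgm1 (0.16) and Nlrc5 to Iigp1 (0.26). Gm12185 was nearest to both Tgtp1 (0.26) and Tgtp2 (0.18), and it shares exonic bases with Tgtp1. Gm20663 was nearest to Gvin1 (0.26), and Creld2, a gene of the endoplasmic reticulum stress response, to Gm4070 (0.29). Among the 8 genes themselves, each gene and its nearest other member formed the pairs Igtp and Irgm2 (0.26), Irgm1 and Iigp1 (0.30), Gvin1 and Gm4070 (0.31) and Tgtp1 and Tgtp2 (0.36). Other pairs of the 8 genes were not ranked.

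The authors' deposited table of differential genes lists 6 of the 8 genes for liver among 797 genes, of the 34348 in the expression table. Of the 797, 625 have a false discovery rate below 0.05. The list comes from the liver comparison by which the 8 genes were chosen, so it says nothing further about them. The log2 fold change in the authors' deposited table was 3.23 for Tgtp1, 3.23 for Gvin1, 2.93 for Gm4070, 2.49 for Tgtp2, 1.59 for Igtp and 1.15 for Irgm2. Irgm1 and Iigp1, below a 2-fold difference here, are not among them. For intestine the authors' deposited table lists 220 genes and none of the 8. Of these 220 genes, 0 have a false discovery rate below 0.05.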

How the data were processed

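RNA was taken from mouse liver and small intestine, cleared of DNA and sequenced on Illumina libraries, per the labels' protocols. Tools listed in the submitters' processing notes are Trimmomatic 0.36, Subread 1.5.1, featureCounts and edgeR 3.12.1, with mm10 as the genome build; what each did, the aligner and the strandedness are not stated there. The deposited expression table holds RPKM per gene and library, which the authors left unscaled otherwise. It has 16 library columns: 12 carry names of the samples and were analysed, and 4 were not used. Reads per gene, and so the depth, were recovered as RPKM times gene length, which came out whole in 100% of non-zero values within 0.001. The authors' deposited differential table gives log2 fold change, p-value and false discovery rate per tissue. Only its log2 fold changes, numbers of genes and numbers of genes with a false discovery rate below 0.05 were used.

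The test was limma 3.58.1 (R 4.3.3) on log2(RPKM + 0.5), two-sided with a trended prior, for genes of at least 0.5 RPKM in 3 or more libraries of the comparison. P-values were adjusted by Benjamini-Hochberg over all genes tested, and calls made below 0.05. The scale understates fold changes of low genes. Liver and intestine were fitted apart, PBS liver against PBS intestine in the 6 PBS libraries, and the difference of the LCWE effects over 12 libraries. An exact permutation test of 3 against 3 libraries could not reach 0.05, so none was used. The procedure was tested on simulated data. In liver it recovered 82.65% of 2-fold and 100% of 4-fold changes (81 and 95 genes), with 22 false calls. In intestine it recovered 75.51% and 100% (74 and 99 genes), with 17 false calls. Between the PBS tissues it recovered 73.96% and 98.96% (71 and 95 genes), with 14 false calls. The alternatives were another pseudocount (0.1 or 1), the filter off or at 1 RPKM, scaling by quantiles or by median ratios, limma voom on the recovered reads, a replicate block, 1 fit over 4 groups, near-identical copies added up, and each library left out. Promoter windows are RefSeq's, in GRCm38.p6. Shared runs of bases were counted in GENCODE M21 transcripts, and promoters aligned with Biopython 1.88.

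The 8 genes and all gene and marker lists were chosen with earlier results of these data known. Adjusted p-values printed for genes of the lists are therefore descriptions as well. Genes named from a list are the 3 with the smallest p in each tissue's LCWE fit, Ifng, Irf1, Alb and Fabp2. For each of the 8 genes, the 3 nearest profiles among genes of at least 1 RPKM in a group were found. Other genes were named after their values were seen. Beside the genes counted in the lists, 1 gene of the interferon gamma pathway is not reported here.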

Additional observations from a re-analysis of the deposited data

Results flagged for a closer look

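For Gvin1 and Gm4070 the LCWE difference was larger in liver than in intestine, by 2.67 and 2.22 on the log2 scale in the fit over 4 groups. In Gvin1 the LCWE difference was 3.09 in liver and 0.43 in intestine, and in Gm4070 it was 2.71 and 0.49. The 8 genes were chosen with these results known, and the reads of these 2 copies are largely interchangeable, so they count as 1 observation at most.

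Of 11 guanylate-binding protein genes, 2 were also past the threshold for this difference, Gbp3 at 0.99 (limma adjusted p 0.0224) and Gbp9 at 1.03 (0.0348). In this direction 0.532% of all genes tested passed. Larger differences in Gbp2b (1.24, limma adjusted p 0.0531) and Gbp2 (1.21, 0.104) did not pass. This list too was chosen with earlier results known. Gbp3 had 28.4, 27.2 and 24.5 RPKM in LCWE livers, against 10.5, 9.10 and 9.06 RPKM in PBS livers. It had 30.0, 33.9 and 35.2 RPKM in LCWE intestines, against 26.4, 24.1 and 21.9 RPKM in PBS intestines. Gbp9 had 6.97, 6.36 and 6.55 RPKM in LCWE livers, against 1.81, 2.53 and 2.88 RPKM in PBS livers. It had 9.51, 9.64 and 9.29 RPKM in LCWE intestines, against 7.96, 8.15 and 6.99 RPKM in PBS intestines. For both genes LCWE was higher than PBS in both tissues without overlap, so the difference is one of size.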

How the results depend on the processing

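With 3 libraries a group, 1 library could decide how many genes passed. Leaving out 1 library gave 55 to 943 calls in liver against 582, with 4 to 8 of the 8 GTPases called. It gave 0 to 70 calls in intestine against 0, and 20 to 461 for the difference of the LCWE effects against 137, with 2 to 4 of the 8. For PBS liver against PBS intestine it gave 9276 to 13095 calls against 13381, with 4 to 7 of the 8 called. The 7 came without PBS intestine replicate 4, among 9478 calls. Calls in liver were 335 with no filter and 987 in 1 fit over 4 groups (4 of the 8), and calls in intestine were 243 in that fit. With copies added up, 1 feature holding members was past the threshold for the difference of the LCWE effects, the sum of the very large GTPases, which in intestine is mainly Gm8979. The log2 LCWE differences of the 8 genes in liver were positive under each alternative run.

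Between the control tissues the sign reversed for Irgm1 with quantile scaling (0.60), with median-ratio scaling (0.69) and without PBS intestine replicate 2 (0.20), with -0.30 to 0.20 over the libraries left out. With the same scalings it reversed for Irgm2 (0.10 and 0.27) and for Tgtp1 (0.43 and 0.25). In that comparison the scaling moves the median of all genes from -0.71 to 0.01 (quantile) or -0.06 (median-ratio). The cause of the other changes was not tested.

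Same-numbered libraries did not deviate together (correlations of their deviations from the group means from -0.102 to 0.116), so the numbers were taken as names. With a replicate block, in which the 4 libraries whose numbers both groups share carry the LCWE difference within a tissue, 24 genes were called in liver (2 of the 8 GTPases) and 0 in intestine. For the difference of the LCWE effects 12 were called, with 0 of the 8.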

Other observations

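Several genes that do not code for GTPases had profiles close to those of the very large GTPases and the Tgtp copies. Creld2 averaged 384 RPKM in LCWE livers and 62.6 RPKM in PBS livers, and 141 RPKM in LCWE intestines and 81.8 RPKM in PBS intestines. H2-M2, a non-classical class I histocompatibility gene, averaged 3.35 RPKM in LCWE livers and 0.257 RPKM in PBS livers, and 8.01 RPKM in LCWE intestines and 6.37 RPKM in PBS intestines. Serpina3f, a protease inhibitor gene, averaged 8.36 RPKM in LCWE livers and 1.48 RPKM in PBS livers, and 1.96 RPKM in LCWE intestines and 1.11 RPKM in PBS intestines. They were picked for likeness, so no test is given.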
